A study of Mus musculus with 22 samples.

Results

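H3K27ac, a histone mark of active promoters and enhancers, was examined at 10 genes of the Tal1 and Lmo2 transcription factor complex, its E protein partners and the Id proteins, out of 21938 protein-coding genes. They were chosen by name: Tal1, Lyl1, Lmo2, Lmo4, Ldb1, Tcf3, Tcf4, Tcf12, Id1 and Id2. Peaks that overlapped a gene body or lay within 50 kb of it were collected from 3 chromatin immunoprecipitation sequencing (ChIP-seq) libraries and merged where they overlapped, which gave 106 of the 34595 merged regions of the genome. Regions within 2.5 kb of an annotated transcription start site (TSS) of the gene were its TSS regions, those within 2.5 kb of another gene's TSS were set apart, and the remainder were distal. All 3 libraries, called replicates 1, 2 and 3, belonged to the group BcorΔE9-10 KL H3K27ac. KL cells are early myeloid progenitors (Lin-cKIT+Sca-1-), here sorted from the bone marrow of male C57BL/6 mice. The mice carried a floxed X-linked Bcor gene (Bcorfl/y) and the scl-Cre-ERT transgene, and received 1 mg of tamoxifen by intraperitoneal injection on each of 5 days at 3 to 6 months of age, with cells taken 20 weeks later. Cre then removes exons 9 and 10 of Bcor, which encodes a subunit of a Polycomb complex. The methods give 3 mice for this genotype. Genotypes are not compared, and all values come from BcorΔE9-10 cells.

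The libraries held 18, 18.9 and 19.3 M reads, as recovered from the peak lists, and 23410, 25963 and 23758 peaks. Fold enrichment is the ratio of fragments at a summit in a library to the local background of the control used for it. Whether the libraries shared a control is not given in the sources used here. The SDs over libraries therefore need not include the error of the control. It is not scaled between libraries, and its median over all peaks was 4.92, 4.72 and 5.53. The weakest called summits had 8, 8 and 9 fragments, so weaker acetylation was not detectable. Of 9 genes that mark myeloid progenitors, 8 had a TSS peak in all 3 libraries and the other, Elane, in 1. The count was 1 of 3 for stem cell markers, 0 of 5 for red cell markers, 0 of 6 for mature myeloid markers, 1 of 5 for lymphoid markers and 0 of 4 for markers of other tissues.

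As background, Tal1 (also called Scl) and its relative Lyl1 are basic helix-loop-helix factors that bind E-box DNA only as pairs with an E protein, encoded by Tcf3, Tcf4 or Tcf12. Lmo2 or Lmo4 has no DNA-binding domain and bridges such a pair to GATA factors and to Ldb1, which self-associates and can bring distant elements together. Id1 and Id2 lack the basic DNA-binding region and hold E proteins in inactive pairs. Tal1 and Lmo2 are needed to form blood stem cells in the embryo, and both are oncogenes in T cell leukaemia.

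H3K27ac was found at the TSS of every gene of the complex and of every E protein gene, in all 3 libraries, and was weak or not detected at the Id genes. With a TSS peak in all 3 libraries were 8 of the 10 genes, set beside 43.9% of all protein-coding genes. Id1 had a TSS peak in 2 libraries and Id2 in none. By the highest peak of each gene, levels at the TSS were ordinary for marked genes. The median over the 8 genes was 9.84, against 10.2 (quartiles 7.0 to 14.9) over all genes with a TSS peak in 3 libraries. Of the 8, 3 lay above that median. The median of the 8 fell to 6.49 when a gene's TSS peaks were averaged in place of taking the highest. The 10.2 is from highest peaks, so 6.49 cannot be set against it. With averaging, the mean percentiles among marked genes were 97.9 for Tcf12, 77.4 for Tcf3, 45.5 for Tal1 and 37.2 for Lmo4. They were 32.3 for Ldb1, 25.6 for Lmo2, 22.9 for Tcf4 and 15.3 for Lyl1, so several levels were then low for marked genes. Lmo2 then had a mean of 5.71, Lmo4 6.76 and Ldb1 6.23, so the order of the genes given below holds for the fold enrichment of the highest peak.

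**Figure D1:**
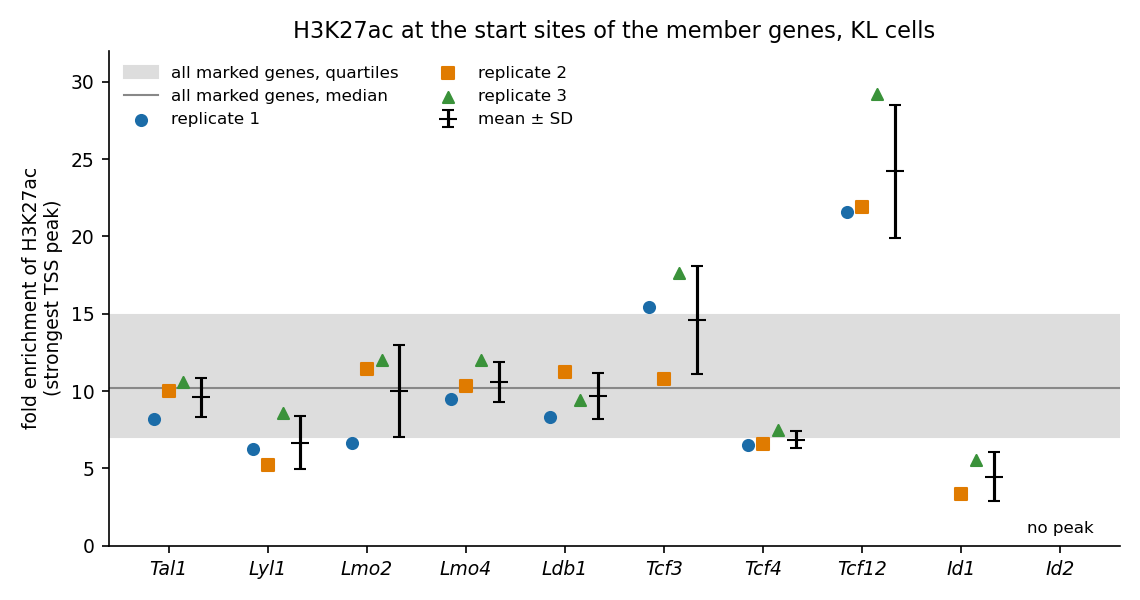
Fold enrichment of the strongest TSS peak (y axis) of each gene (x axis) in replicates 1, 2 and 3, with mean ± SD and the median and quartiles of all protein-coding genes marked in 3 libraries. Tcf12 sits between 21.6 and 29.2, above the other 9 genes in every library, and Id2 has no peak.

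Among the E protein genes, Tcf12, which encodes HEB, had the highest TSS fold enrichment of the 10 genes. Its fold enrichment was 21.6, 21.9 and 29.2 in replicates 1, 2 and 3, a mean of 24.2 ± 4.29 (SD, n = 3), between the 92.9 and 97.5 percentile of genes with a TSS peak. No other member reached these values in any library. Tcf3, the gene of E2A (E12 and E47), had 15.4, 10.8 and 17.6, with replicate 2 the lowest and a mean of 14.6 ± 3.47. By fragments at the summit of these peaks the order differed. Tcf3 had 91, 66 and 110 and Tcf12 had 66, 69 and 94, so Tcf3 was higher in replicates 1 and 3. The control background was 2.57 times the genome level at Tcf3 and 1.09 at Tcf12 in each library. Since the control may have been shared, such equal values are not independent measurements. Tcf4, the gene of E2-2, had 6.49, 6.58 and 7.48, a mean of 6.85 ± 0.548, in the lower part of the marked genes at the 28.4 to 30.2 percentile.

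The complex genes formed a middle group. Tal1 had 8.19, 10.0 and 10.6 (mean 9.6 ± 1.26). Lmo2 had 6.61, 11.4 and 12 (mean 10.0 ± 2.96), and Lmo4 had 9.46, 10.3 and 12 (mean 10.6 ± 1.30). Replicate 1 was the lowest library at each of these 3 genes. Ldb1 had 8.31, 11.2 and 9.43 (mean 9.66 ± 1.48). Lyl1 was lower by fold enrichment, with 6.25, 5.21 and 8.57 (mean 6.67 ± 1.72). Its control background there was 2.96, 1.88 and 2.96 times the genome level. By fragments at the summit of these peaks it had 41, 24 and 60. That was above the 23 and 40 of Tal1 in replicates 1 and 3 and below its 39 in replicate 2. The mean percentile of Lyl1 was 27.1 by fold enrichment and 42.6 by −log10 p.

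By mean fold enrichment the order of the 8 genes was Tcf12, Tcf3, Lmo4, Lmo2, Ldb1, Tal1, Tcf4 and Lyl1. Tcf12 exceeded Tcf3 by 9.63 ± 2.98 (SD of the difference within libraries, n = 3), with ranges that did not overlap. Tcf3 exceeded Lmo4 by 4.01 ± 3.05 in 3 of 3 libraries, although their ranges overlapped. Tal1 exceeded Tcf4 by 2.75 ± 0.919, again without overlap. Neighbours from Lmo4 to Tal1 differed by no more than 0.583, less than the SD of each difference, and Tcf4 and Lyl1 differed by 0.173 ± 1.23.

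Among the inhibitors, Id1 had no peak in replicate 1 and weak ones in the other libraries, at 3.33 with 13 fragments in replicate 2 and 5.57 with 17 in replicate 3. Those values lay at the 2.44 and 14.1 percentile of marked genes. Id2 had no peak in the gene body or within 50 kb in any library, so acetylation there was below what this depth detects.

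Many of these genes have several promoters, and TSSs were grouped where neighbouring ones lay within 2.5 kb of each other. Of the 11 promoters of Tcf4, 3 had peaks in all 3 libraries: the most upstream, at 6.49, 6.58 and 7.48, the next, at 4.99, 5.59 and 6.07, and the sixth, at 5.29, 5.63 and 7.45. Of the other 8, 1 had a peak in replicate 3 alone, at 3.91, and 7 had no peak in any library. In Tcf12 the first of 5 promoters carried all of the acetylation found at a TSS, and the other 4 had no peak. In Tcf3 the first 2 of 4 promoters were marked, at means of 14.6 ± 3.47 and 10.1 ± 1.64, although the peak counted for the second lies 15 bp from a TSS of the first.

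Lmo2 has a far upstream promoter and a downstream one. The downstream promoter (TSSs from 103969528 to 103971179 on chromosome 2) carried the values given above. At the far upstream promoter the values were 3.12 in replicate 1 and 3.64 in replicate 2, with no peak in replicate 3, and each was below the downstream promoter of its own library. Ldb1 was marked at all 3 of its promoters in every library, at means of 9.65 ± 1.46, 7.2 ± 0.266 and 4.76 ± 0.126 in the direction of transcription, although the peak counted for the last lies 1071 bp from a TSS of the one before it. The strongest of these regions is also at a TSS of Pprc1, the neighbouring gene, and the share of each gene cannot be told apart.

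**Figure D2:**
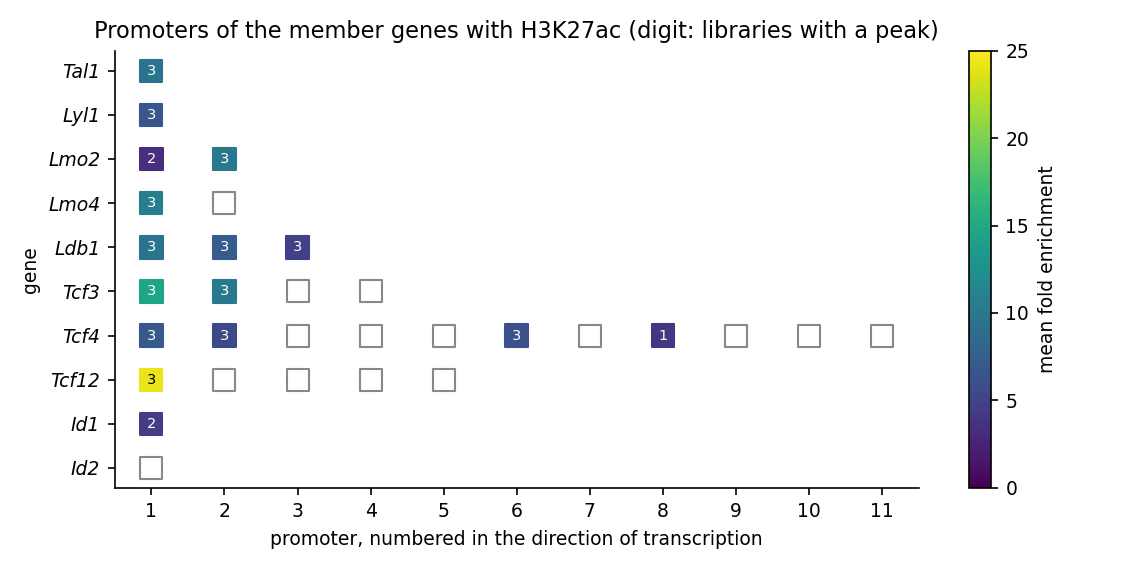
Promoters of each gene (rows), numbered in the direction of transcription (x axis), coloured by mean fold enrichment over the libraries with a peak, with the number of such libraries as a digit and open squares for none. Tcf4 is marked in 3 libraries at 3 of its 11 promoters and Tcf12 at 1 of 5.

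The promoters differed in sequence. The RefSeq table of GRCm38.p6 held 14 promoters of 7 of the 10 genes, and the 250 bases upstream of each TSS were read. The most upstream Tcf12 promoter in it had 38 CpG dinucleotides, a number reached by 1.88% of all 32851 promoters, whereas Lyl1 had 5, against a median of 6.0. Tal1 had 6 at its upstream promoter in the table and 16 at the other. Among the strings searched on both strands were the E-boxes CAGCTG and CAGATG and the GATA factor site AGATAA. They occur in 13.0%, 14.4% and 9.99% of all promoters. The ETS factor core AGGAAG (29.5% of promoters, 45.8% of distal windows) and the Runx factor core TGTGGT (14.0% and 23.3%) were searched as well. The RefSeq promoters included none of Lmo2. The upstream bases are shown for Tcf12, with the highest TSS fold enrichment, and for Tal1 and Lyl1, whose factors pair with an E protein. They can so be set side by side, with the E-box and GATA strings in capitals and each sequence on its gene's strand. Tal1 is at chr4:115056176-115056425 (plus strand), Lyl1 at chr8:84701207-84701456 (plus strand) and Tcf12 at chr9:72111872-72112069 (minus strand, cut where the first annotated exon begins).
Tal1 promoter: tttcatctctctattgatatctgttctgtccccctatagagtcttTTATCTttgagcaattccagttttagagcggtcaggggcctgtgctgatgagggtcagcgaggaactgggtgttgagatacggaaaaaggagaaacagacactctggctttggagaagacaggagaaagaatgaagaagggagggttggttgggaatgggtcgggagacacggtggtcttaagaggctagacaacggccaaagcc
Lyl1 promoter: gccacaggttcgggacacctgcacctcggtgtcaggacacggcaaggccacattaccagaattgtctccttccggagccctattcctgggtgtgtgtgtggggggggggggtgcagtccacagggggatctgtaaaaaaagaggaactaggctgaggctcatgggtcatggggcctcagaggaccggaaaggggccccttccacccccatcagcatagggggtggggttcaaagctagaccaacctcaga
Tcf12 promoter: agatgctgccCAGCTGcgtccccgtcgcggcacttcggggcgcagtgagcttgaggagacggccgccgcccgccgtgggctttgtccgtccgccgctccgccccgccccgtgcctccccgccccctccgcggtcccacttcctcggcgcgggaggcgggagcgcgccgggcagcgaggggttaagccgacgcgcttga
The Tal1 promoter held 1 AGATAA, the Tcf12 promoter held 1 CAGCTG, and the Lyl1 promoter held none of the strings searched. The Tcf12 promoter also held 1 AGGAAG.

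Distal H3K27ac in at least 2 libraries was found in the windows of 5 of the 10 genes: Tal1, Lmo2, Lyl1, Tcf12 and Tcf4. A distal region in all 3 libraries was present in the windows of those 5, set beside 13.7% of all protein-coding genes and 21.8% of genes with a TSS peak in all 3 libraries. These shares were not matched for window length, which follows the gene. Tcf4 is 346 kb long and Tcf12 269 kb, against 15.3 kb for Tal1, 23.9 kb for Lmo2 and 3.26 kb for Lyl1. Lmo4, Ldb1, Tcf3, Id1 and Id2 had no distal region in more than 1 library. The windows held 43 distal regions, and 24 of them came from a single library. The 10 found in all 3 made up 23.3% here, compared with 16.7% of the 14714 distal regions elsewhere. The 19 regions in at least 2 libraries became 11 without replicate 3, 8 at a −log10 q of at least 5 and 12 with a TSS window of 5 kb. At the stricter q only Tal1, Lmo2 and Tcf12 kept a distal region in all 3 libraries. With windows of 20 kb the count of genes was also 3, and they were Tal1, Lmo2 and Tcf4. With windows of 100 kb it was 7, with Id1 and Id2 added. With a TSS window of 1 kb it was 6, with Ldb1 added. With TSSs of protein-coding transcripts only it was also 6, with Lmo4 added. The Lmo4 region, in intron 2, had 4.1, 3.97 and 5.2 in replicates 1, 2 and 3. It was set apart in the main setting because it lies 285 bp from a TSS of the noncoding Gm43445.

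TSS peaks of the 10 genes were stronger than their distal peaks in each library. The median fold enrichment was 5.72 over 25 TSS peaks and 4.14 over 32 distal peaks in replicate 1, 4.63 over 29 and 3.97 over 20 in replicate 2, and 6.07 over 29 and 4.37 over 24 in replicate 3. The ratios were 1.38, 1.17 and 1.39 (mean 1.31 ± 0.128, SD, n = 3). An exact permutation test that flips the sign of each log ratio gave p = 0.25 (two-sided), and 3 libraries cannot give a smaller one. Over all peaks of the genome the ratios were 1.5, 1.51 and 1.6.

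**Figure D3:**
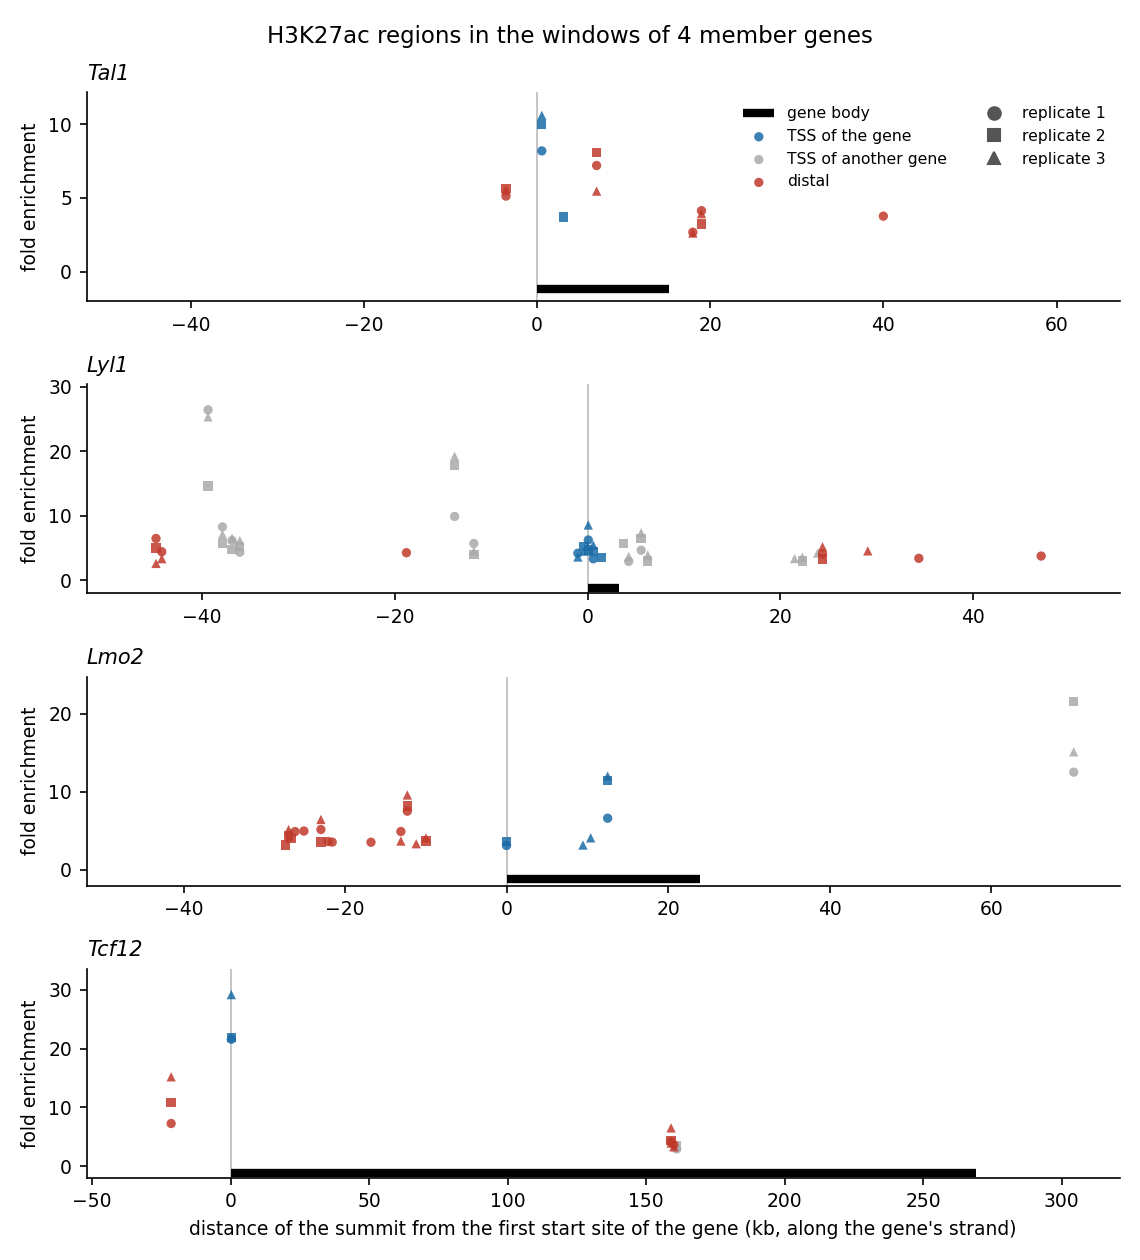
Fold enrichment (y axis) of the H3K27ac regions in the windows of Tal1, Lyl1, Lmo2 and Tcf12 against the distance of the summit from the first TSS in kb (x axis), by replicate (symbol) and class (colour), with the gene body as a black bar. Distal regions lie on both sides of Tal1 and Lyl1, upstream of Lmo2, and both upstream of and inside Tcf12, and most of the marked regions around Lyl1 belong to TSSs of other genes.

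At Tal1, enhancers upstream and downstream of the gene are known to act in blood progenitors, among them a downstream stem cell enhancer. Distances are from the first TSS to the mean summit. A region at -3.58 kb (chr4:115052396-115053119, intergenic) had 5.12, 5.62 and 5.53 in replicates 1, 2 and 3, the smallest spread of the Tal1 distal regions in all 3 libraries. The strongest, at +6.89 kb (chr4:115062645-115063745), has its mean summit in an exon of Tal1 and had 7.2, 8.1 and 5.46. Another, at +19.0 kb (chr4:115075066-115076049, between Tal1 and Pdzk1ip1), had 4.13, 3.23 and 3.93. Beside it, at +18 kb, replicates 1 and 3 had a weak peak of 2.67 and 2.61, and at +40.0 kb only replicate 1 had one, at 3.76. By distance the regions at +18 and +19.0 kb are closer to the TSS of Pdzk1ip1, 12.7 kb away in the latter case, than to a TSS of Tal1. With a TSS window of 5 kb the +19.0 kb region was the only one of the 3 that stayed distal in all 3 libraries. No peak was found at the TSS of any other gene in the Tal1 window.

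The control was itself high at 2 of these regions. The background that the peak caller used at the summit, relative to the genome-wide level, was 3.66, 3.66 and 3.95 at +6.89 kb and 5.63, 5.63 and 4.94 at +19.0 kb, against 1.0 in each library at -3.58 kb. Among the 2460 distal regions in all 3 libraries the median was 1.22 and the 95th percentile 2.04. As high a background as at +6.89 kb was found in 10 of them, and as at +19.0 kb in 5. The scl-Cre-ERT transgene, Tg(Tal1-cre/ERT)42-056Jrg in the methods, carries Tal1 regulatory DNA, and reads from it and from the endogenous gene cannot be told apart in the peak lists. The control is not named in the sources used here, nor is it known whether it carried the transgene. Its part in these values was not tested.

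Because of that background, the order of the Tal1 sites depended on the measure. By fold enrichment the +6.89 kb region was below the TSS in 3 of 3 libraries, at ratios of 0.879, 0.81 and 0.515 (mean 0.735 ± 0.193, SD, n = 3). By fragments at the summit it was above the TSS peak of highest fold enrichment in 3 of 3. It had 57, 67 and 49 fragments against 23, 39 and 40 at that peak, at ratios of 2.48, 1.72 and 1.23 (mean 1.81 ± 0.631). The +19.0 kb region had 48, 39 and 43 fragments, at the 97.2 percentile of the 2460 distal regions, whereas its fold enrichment was at the 7.48 percentile.

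**Figure D4:**
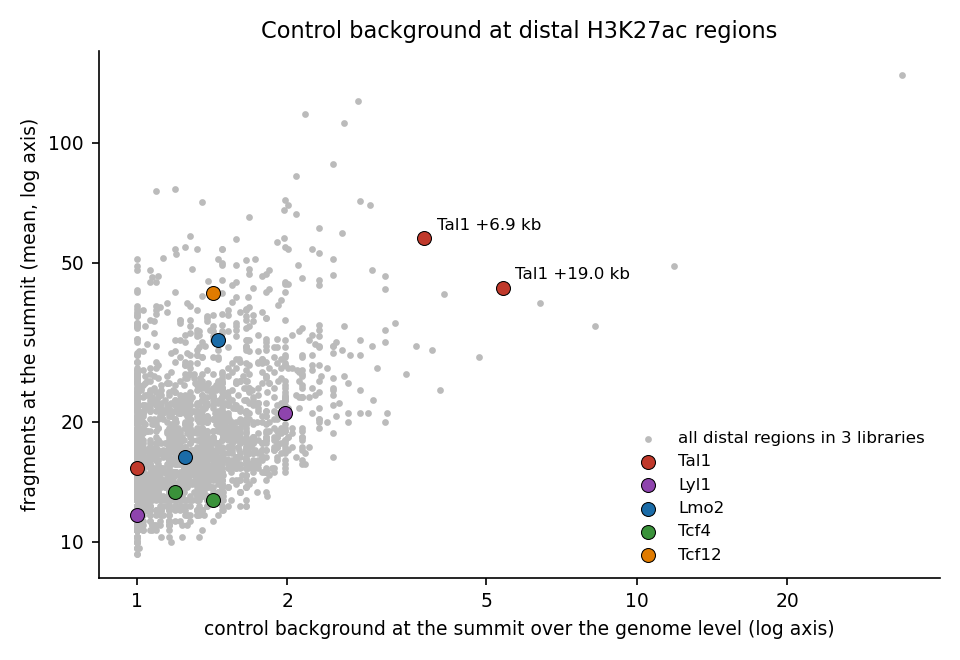
Mean fragments at the summit (y axis, log scale) against the control background at the summit relative to the genome level (x axis, log scale) for the 2460 distal regions in all 3 libraries, with those of the member genes coloured. The Tal1 regions at +6.89 and +19.0 kb lie at 3.76 and 5.4 times the genome level, and the other 8 coloured regions at 1.98 or less.

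The bases around the mean summit of 2 Tal1 regions are shown as the strongest distal region of the gene and, chosen after its values were seen, the region with the highest control background. Both are from the plus strand of GRCm38, at chr4:115063168-115063467 and chr4:115075259-115075558. Neither held an E-box or GATA string on either strand, so both are in lower case throughout.
Tal1 +6.89 kb: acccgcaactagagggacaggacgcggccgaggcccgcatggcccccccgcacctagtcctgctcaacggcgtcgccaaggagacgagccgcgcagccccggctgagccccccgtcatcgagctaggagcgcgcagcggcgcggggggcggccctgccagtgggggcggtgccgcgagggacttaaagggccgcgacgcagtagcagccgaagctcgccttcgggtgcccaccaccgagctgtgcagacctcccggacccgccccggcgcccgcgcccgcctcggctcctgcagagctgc
Tal1 +19.0 kb: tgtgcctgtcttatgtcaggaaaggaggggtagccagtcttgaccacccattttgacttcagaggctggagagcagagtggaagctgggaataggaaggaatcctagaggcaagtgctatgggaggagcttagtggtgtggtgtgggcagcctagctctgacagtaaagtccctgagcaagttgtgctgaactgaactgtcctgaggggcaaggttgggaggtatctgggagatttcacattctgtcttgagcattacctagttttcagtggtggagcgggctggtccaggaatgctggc
Those strings occur, in the order given above, in 20.0%, 21.3% and 10.3% of the same windows of the 2460 regions. The +19.0 kb window held 1 AGGAAG and 1 TGTGGT, and the +6.89 kb window neither. The +6.89 kb window held 39 CpG dinucleotides, a number reached by 15 of the 2460 windows (0.61%), and the +19.0 kb window held 1. Acetylation summits need not lie on the bases a factor binds. In windows of 1000 bases the +19.0 kb region held 1 AGATAA and the +6.89 kb region 1 CAGCTG, strings found in 38.6% and 46.5% of such windows.

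At Lmo2, all distal regions in the window of 50 kb lay upstream of the gene. With a window of 100 kb, Lmo2 had 9 distal regions in at least 2 libraries, against 5 here. The strongest, at -12.3 kb (chr2:103945155-103946026, intergenic), had 7.51, 8.16 and 9.58, a mean of 8.42 ± 1.06, with 28, 30 and 38 fragments. A second, at -23.0 kb (chr2:103934044-103935649, intergenic), had 5.17, 3.57 and 6.45, lower than the first in each library. Their control background, was 1.45 and 1.25 times the genome level, against the median of 1.22. Of the other 11 distal regions, all intergenic, 3 were in 2 libraries and 8 in 1. The 5 regions in at least 2 libraries were more than most genes had: 1.92% of protein-coding genes had as many, and 3.04% had as many as the 4 of Tal1 and Tcf12, although windows differ in length with the gene. The next marked TSS, shared by Fbxo3 and 4931422A03Rik, lay 70.2 kb from the first TSS of Lmo2.

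At Tcf12, a strong distal region lay upstream of the gene and a group of weaker ones in intron 5. The upstream region, at -21.5 kb (chr9:72132811-72133799, intergenic), had 7.25, 10.8 and 15.2, a mean of 11.1 ± 4.0, the highest mean fold enrichment of the distal regions of the 10 genes and at the 97.1 percentile of the 2460 distal regions. In replicate 1 the Lmo2 region at -12.3 kb was higher, and by mean fragments the Tal1 regions at +6.89 kb (57.7) and +19.0 kb (43.3) exceeded its 42.0. Replicate 3 was at its highest there, as at the Tcf12 TSS. The closest annotated TSS, of the processed pseudogene Gm7863, is 4224 bp away, and with a TSS window of 5 kb the region was no longer distal. The 3 regions in intron 5, close to the TSS of Gm27152 and each in 2 libraries, had means of 3.46, 4.04 and 5.4.

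Lyl1 sits among closely spaced genes, inside an annotated transcript of Nfix on the other strand and next to Trmt1. Of the 25 regions in its window, 13 were at TSSs of other genes, led by mean level by Ier2, an immediate early gene, with 26.4, 14.6 and 25.3, although in replicate 2 the Nacc1 and Trmt1 region was higher, at 17.8. A distal region at -44.8 kb (chr8:84656267-84656882, intergenic) had 6.48, 5.0 and 2.62 but is 5.97 kb from the TSS of Ier2. The other, at +24.4 kb (chr8:84725548-84726130), lies in introns of Nfix and G430095P16Rik and had 4.1, 3.31 and 5.2. Neither has Lyl1 as its closest gene, and when distal regions were counted once each, for whichever coding gene had its TSS closest, Lyl1 had none and 4 members, Tal1, Lmo2, Tcf4 and Tcf12, had one in all 3 libraries. The control background at the Lyl1 TSS was 2.96, 1.88 and 2.96 times the genome level.

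The windows of 300 bases around the strongest distal summit of Lmo2, Tcf12 and Lyl1 are shown to set their base composition side by side, at a GC content of 54.3%, 69.3% and 55%. They are from the plus strand of GRCm38, at chr2:103945493-103945792, chr9:72133256-72133555 and chr8:84656519-84656818, with capitals as before.
Lmo2 -12.3 kb: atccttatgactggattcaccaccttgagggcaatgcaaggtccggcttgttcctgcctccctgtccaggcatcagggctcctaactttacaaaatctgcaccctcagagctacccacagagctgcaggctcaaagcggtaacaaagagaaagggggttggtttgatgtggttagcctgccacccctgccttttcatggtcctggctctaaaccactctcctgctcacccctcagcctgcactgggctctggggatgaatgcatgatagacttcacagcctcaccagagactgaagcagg
Tcf12 -21.5 kb: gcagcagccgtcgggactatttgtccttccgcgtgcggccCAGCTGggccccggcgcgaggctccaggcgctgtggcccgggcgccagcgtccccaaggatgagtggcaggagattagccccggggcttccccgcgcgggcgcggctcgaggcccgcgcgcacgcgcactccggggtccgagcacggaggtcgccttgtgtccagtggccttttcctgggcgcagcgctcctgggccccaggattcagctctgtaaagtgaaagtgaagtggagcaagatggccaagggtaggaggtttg
Lyl1 -44.8 kb: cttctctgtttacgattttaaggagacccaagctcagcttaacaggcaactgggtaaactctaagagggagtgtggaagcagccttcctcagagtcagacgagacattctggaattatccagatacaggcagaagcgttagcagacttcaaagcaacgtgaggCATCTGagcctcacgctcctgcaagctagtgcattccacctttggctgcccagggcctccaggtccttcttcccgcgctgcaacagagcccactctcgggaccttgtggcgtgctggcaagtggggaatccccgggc
The Tcf12 window held 1 CAGCTG and 30 CpG dinucleotides, a number reached by 1.83% of the distal windows. The Lmo2 window held 2 CpG dinucleotides and, of the strings searched, 1 TGTGGT. The Lyl1 window held 10 CpG dinucleotides and, on the minus strand, 1 CAGATG and 1 AGGAAG. The joined string CTGNNNNNNNNGATAA, an E-box end followed by a GATA core, was in none of the printed sequences, and occurs in 1.22% of distal windows.

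At Tcf4, 2 distal regions in all 3 libraries lay deep in the gene. In intron 9, chr18:69576168-69576668 had 3.45, 3.25 and 3.93, and in intron 16, chr18:69666453-69667076 had 4.78, 3.75 and 4.18. A neighbour of the former was higher where it was found, at 7.38 in replicate 1 and 5.11 in replicate 3, and had no peak in replicate 2. The regions found in 3 libraries were weak for distal regions, at the 3.29 and 23.6 percentile.

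The study used clustered H3K27ac to define super-enhancers (SEs), and the same question was asked of these genes with the peak lists. Peaks were stitched over the distance customary for SE calls, ranked by fold enrichment times length, and called SEs past the point of slope 1, which gave 1383, 1083 and 1190 SEs. The study ranked regions by tag counts, so these are not its SE calls and their number cannot be set against it. Of the 10 genes, 5 were assigned an SE in at least 2 libraries. All 5 were among the 9 members with a TSS peak in at least 2 libraries, set beside 17.4% of all protein-coding genes with such a peak. Tal1, Lmo2 and Ldb1 had one in all 3, Lyl1 in replicates 2 and 3, and Tcf12 in replicates 1 and 3. Without replicate 3 the count was 3 (Tal1, Lmo2 and Ldb1), and at a −log10 q of at least 5 it was also 3 (Tal1, Ldb1 and Tcf12). The genes called also changed with the method: Tcf12 had no SE when regions were ranked by summed fold enrichment, and with stitching within 5 kb Lyl1 had none and Lmo4 had one in 2 libraries. Tal1 and Lmo2 were named as SE genes by the study on these libraries, so their calls are not independent evidence.

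The content of these SEs differed between the genes. At Tal1 the stitched region of 23.4, 23.6 and 23.5 kb ranked 710, 526 and 505, was assigned to no other gene and held 5, 3 and 4 distal peaks. At Lmo2 it was 39.9 and 41.0 kb long in replicates 1 and 2, with ranks of 578 and 326 and 9 and 8 distal peaks. In replicate 3, which had no peak at the far upstream promoter, the upstream peaks were stitched apart and not called, and the 4.61 kb over the downstream promoter ranked 906 with no distal peak. At Ldb1 the region of 19.2 to 19.6 kb ranked 912, 758 and 628, and all but 1 of its peaks, in replicate 2, were at TSSs of Ldb1 or of Pprc1, to which it was also assigned. At Lyl1 it was shared with Nacc1 and Trmt1, and at Tcf12 it was the single TSS peak of 1.38 and 1.63 kb in the libraries with a call. With TSS peaks left out before stitching, Tal1 and Lmo2 still had an SE in 3 libraries and Tcf12 in 2, while Ldb1 and Lyl1 had none. In that setting Id2 also had one in 3 libraries, outside its window of 50 kb, since a region without a TSS goes to the closest gene.

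**Figure D5:**
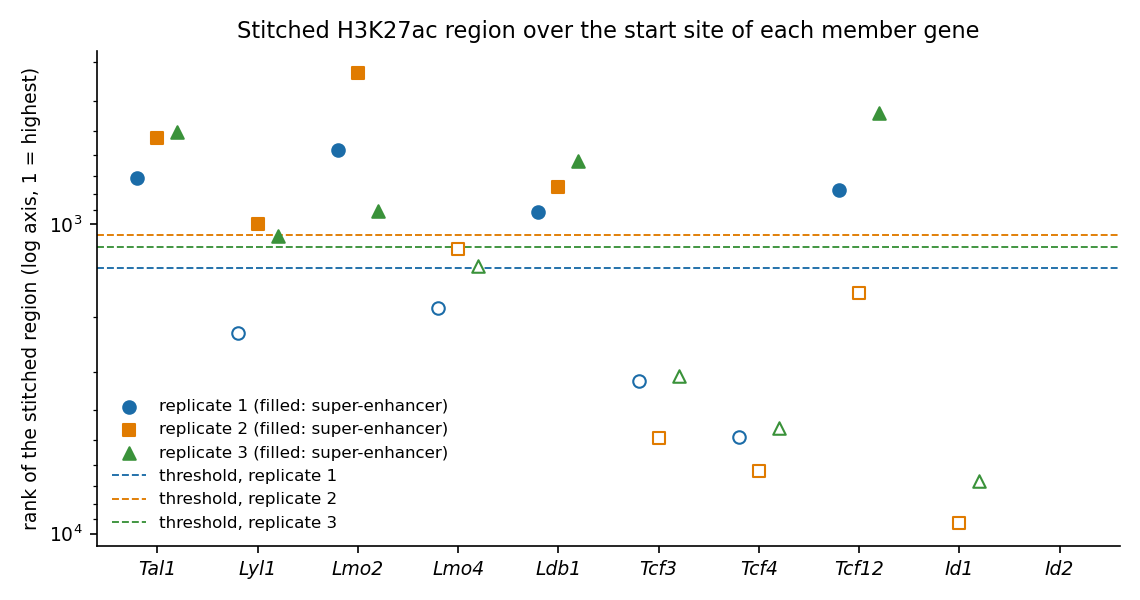
Rank of the stitched region over a TSS of each gene (y axis, log scale, 1 highest) in replicates 1, 2 and 3, filled where it was called a super-enhancer, with the threshold rank of each library as a dashed line. Tal1, Lmo2 and Ldb1 pass in all 3 libraries, and Tcf3, Tcf4, Lmo4 and Id1 in none.

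Genes of known partners of the complex were mostly marked, and relatives of its members were not. Of 14 partner genes, 13 had a TSS peak in all 3 libraries and 11 a distal region in all 3, beside the 43.9% and 13.7% of all genes. The distal share was 21.8% of genes with a TSS peak in all 3 libraries. Windows differ in length with the gene, and neither the shares nor the counts of regions were matched for length. The ETS factor gene Fli1 had a TSS mean of 20.4 ± 3.41 (SD, n = 3) and Gata2, the GATA factor of early progenitors, 6.87 ± 1.89. Runx1, a master regulator of blood formation, had 9 distal regions in all 3 libraries, and Erg, another ETS factor gene, had 12. The exception was Gata1, the GATA factor of red cells and megakaryocytes, which had no TSS peak in any library. Gata1 is on the X chromosome and the mice were male, and the part of gene copy number in detection was not tested.

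None of 8 paralogues of the member genes (Tal2, Nhlh1, Nhlh2, Lmo1, Lmo3, Ldb2, Id3 and Id4) had a TSS peak in any library. Of 6 genes that the complex is known to activate in red cells, 0 had a TSS peak in all 3 libraries. Klf1, an erythroid activator, had one in replicates 1 and 3, at 5.29 and 6.07.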

How the data were processed

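H3K27ac ChIP-seq was analysed in 3 libraries, and 19 further samples of the series were not analysed here. Per the submitters' processing notes and the study's methods, the authors aligned reads to GRCm38 with Bowtie2 and called peaks with MACS2 2.1.1 in each library. The control and the settings of the caller were not given in the sources used here. Each row of the deposited peak lists holds a fold enrichment (a ratio), a −log10 p-value, a −log10 q-value and a score. The score was not used.

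Rows of the same interval were taken as 1 peak with its highest fold enrichment. Fold enrichment and p-value are both set by the fragments at the summit and the background, so both were solved for, which succeeded in 100.0%, 100.0% and 99.98% of rows. Depth follows from the genome-wide background, fragments of 200 bp and a genome of 1870000000 bp. It limits which peaks were called, and no molecular identifiers were used, so fragments are not certain to be independent molecules.

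Peaks that overlapped by at least 1 bp were merged, with gene models of GENCODE M21. Distal sequence was read from RefSeq GRCm38.p6, in windows of 300 bases centred on the mean summit. Coordinates are counted from 1. Scripts were checked on simulated peaks (Python 3.11, numpy, pandas, scipy). A percentile is among protein-coding genes with a TSS peak in that library, or among distal regions in all 3 libraries. An SE was assigned to each gene whose coding TSS it contained, or otherwise to the closest. All 10 genes were named, and for each gene the strongest distal region in all 3 libraries, plus every such region of Tal1, Lmo2 and Lyl1. The genes, lists, tests and motif strings were chosen with earlier results of these data known.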

Additional observations from a re-analysis of the deposited data

How the results depend on the processing

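No paired analysis was possible because 1 group was analysed, so replicate numbers pair nothing. Leaving out each replicate in turn gave 11 to 16 distal regions in at least 2 libraries, 3 to 4 genes with an SE, 8 to 9 with a TSS peak in every library, 5 to 5 with a distal region in every library, a ratio of TSS to distal enrichment of 1.27 to 1.39, and a median TSS level of 9.36 to 10.3. A −log10 q of at least 5 gave 8 distal regions, 3 genes with a distal region in every library and 3 with an SE. A TSS window of 5 kb gave 12 distal regions, and gene windows of 20 kb gave 3 genes with a distal region in every library. Averaging TSS peaks in place of taking the highest gave a median level of 6.49. The other 33 comparisons of these results with an alternative stayed within 1.5 times the count, within 1 SD of the level, or on the same side of a ratio of 1, although the genes behind a like count of SEs differed between settings. In all of those run, TSS peaks were stronger than distal peaks, including with Tal1 left out (1.27) and by fragments in place of fold enrichment (1.35), both added after the data were seen. For the TSS levels and percentiles of single genes, 18 comparisons moved by more than the SD and 79 did not, leaving replicate removals aside. The cause of these shifts was not tested. Fewer than 8 fragments at a summit were never called, so weaker sites are not represented.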
